A study of Rattus norvegicus with 2 samples.

Results

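Molecular motors carry cargo along the cytoskeleton, and the probe sets of 4 motor families were examined in sympathetic neurons of the rat, which release noradrenaline onto heart and vessels through long axons. The families were the kinesins with their light chains, cytoplasmic dynein, dynactin with the Lis1 (Pafah1b) proteins, and the unconventional myosins. Members were taken by gene symbol (Kif, Klc, Dync, Dynl, Dctn, Pafah1b and numbered Myo symbols) among probe sets that the platform annotation assigns to exactly 1 gene. The muscle myosin heavy and light chain genes were not included. This gave 77 of the 15866 probe sets that are not controls, and 57 of 10411 genes.

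The first of the 2 samples was RNA from neurons that had been grown with myocytes, the muscle cells that are a target of these neurons. The other sample was RNA from neurons cultured with no myocyte target. Each was hybridised to 1 Affymetrix Rat Expression Set 230A array. Per the labels' protocols, neurons were lifted off cultures holding myocytes or other flat cells with EDTA, which leaves the more adherent cells on the dish, and no strain, age or time in culture is stated there. The free-text description of both samples speaks of neurons grown alone, while the co-culture sample's title says otherwise, and the titles were followed. With 1 array per condition no difference has a replicate check and none was tested. Each value compares these 2 arrays.

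Kinesins mostly walk towards the plus end of microtubules, which lies at the tip of an axon, and so carry vesicles, mitochondria and cytoskeletal proteins outwards. Cytoplasmic dynein walks the other way, needs dynactin and Lis1 for long runs, and brings endosomes with trophic signals back to the cell body. Other kinesins build and move the mitotic spindle and are abundant in dividing cells, and unconventional myosins move short distances on actin.

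A gene's value was the deposited intensity of its brightest probe set. A difference was the log2 ratio of co-culture over alone, with a floor of 39.6, the 20th percentile over both arrays, put under all values. A gene was above the filter if its intensity reached its array's median (175.0 in co-culture, 185.7 alone) in at least 1 array. Of the 57 motor genes, 44 were above the filter. An SD for a single ratio came from 749 genes that 2 or more probe sets above the filter measure. It is the disagreement of 2 probe sets on the same 2 arrays and holds no variation between cultures, preparations or arrays. This SD, for 1 probe set on the log2 scale, was 0.35 below an intensity of 333, 0.28 between 333 and 899, and 0.21 above that.

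On their brightest probe sets, the transport kinesins and light chains above the filter had lower signals with myocytes than without. For Kif13a, Kif5b, Kif3b and Klc1 this difference was within the SD of 1 probe set. Most dynein and dynactin genes were near equal in the 2 arrays. The ratios of Dctn4 (-0.64), Dynll2 (-0.28) and Dync1i2 (0.23) exceeded that SD. Most spindle kinesins were slightly higher. Over all 44 motor genes, 28 were lower and 16 higher, against 52.7% lower and 47.3% higher among the 6368 genes above the filter. Under scaling of both arrays to one median, 20 were lower (45.5%) and 24 higher, where 38.7% of all genes were lower. Under scaling to the spiked controls 35 were lower (79.5%) and 9 higher, where 67.4% of all genes were lower. The motor median log2 ratio was -0.07, against -0.01 over all genes, with the middle 50% of motor genes between -0.24 and 0.07 and that of all genes between -0.19 and 0.14. A 1.5-fold lower signal was found for 2 motor genes, Kif5a and Dctn4, against 3.3% of all genes, and a 1.5-fold higher signal for 0 motor genes, against 1.93%. No motor gene reached 2-fold in either direction, which 0.628% of all genes did on the lower and 0.314% on the higher side. Counted by probe set, 4 of the 55 above the filter were at least 1.5-fold lower and 0 higher, against 4.24% and 1.91% of all 8308 such probe sets. More than the SD of 1 probe set at the gene's intensity separated the arrays for 9 lower and 2 higher motor genes, where 14.8% and 11.2% of all genes did so.

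**Figure D1:**
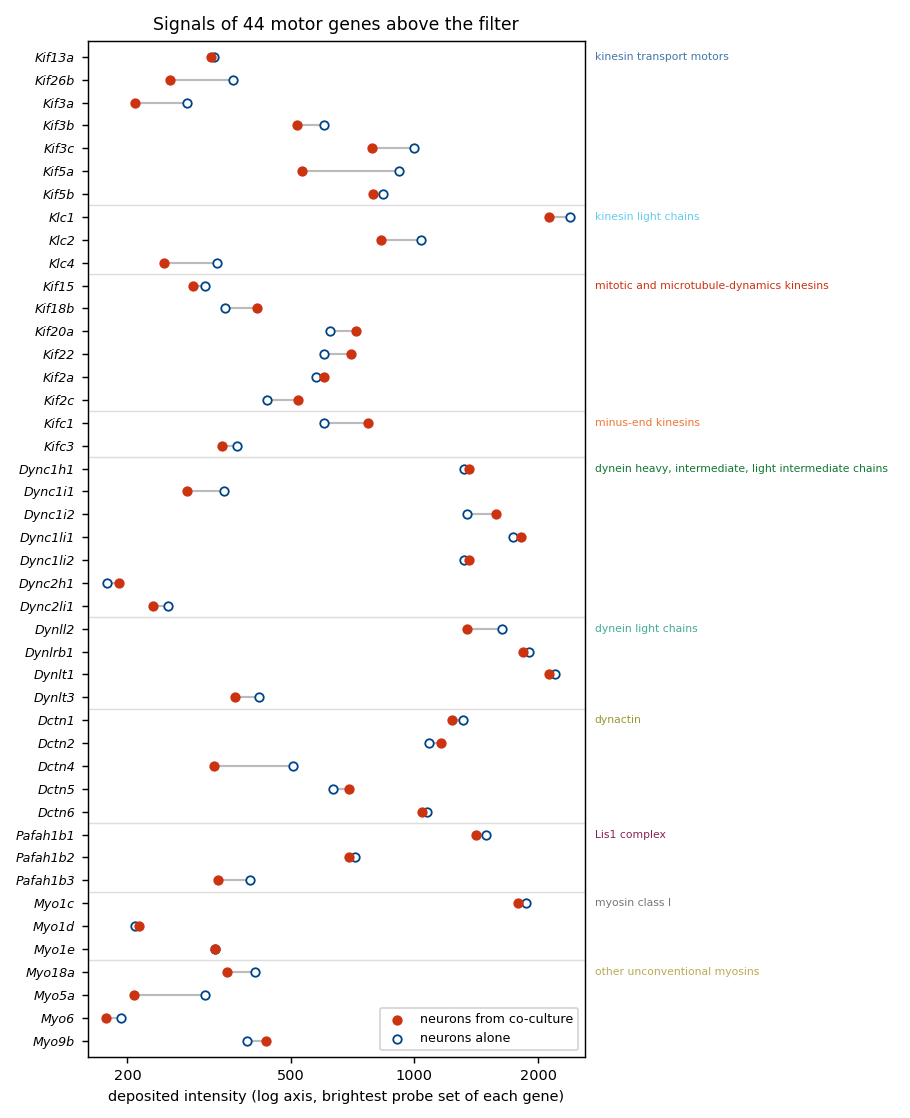
Deposited intensity (log axis) of the brightest probe set of the 44 motor genes above the filter, with neurons from co-culture as filled and neurons alone as open circles, 1 array each. The widest gap is that of Kif5a, at 533 in co-culture and 919 alone, while spindle kinesins such as Kif20a and Kifc1 have the filled circle to the right.

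In co-culture all 7 transport kinesins above the filter were lower, with a median log2 ratio of -0.34 and a range from -0.78 to -0.02. The lower sign of Kif13a, an endosome kinesin (319 in co-culture and 324 alone), turned under quantile normalization (0.05), median scaling (0.06) and lowess (0.04), a second probe set below the filter had 53.3 and 59.0 (-0.15), and Kif5b came to 0.00 under median scaling. The other 5 stayed lower under every scaling tried.

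Kif5a, the neuronal heavy chain of conventional kinesin that carries neurofilaments and mitochondria down the axon, had an intensity of 533 in neurons from co-culture and 919 in neurons alone. That is 1.72-fold lower, a log2 ratio of -0.78 against an SD of 0.28. Its second probe set had 323 in co-culture and 422 alone (-0.39), so both were lower but at different sizes. Kif5b, the form of the same heavy chain found in most cells, had 792 in co-culture and 840 alone (-0.08, SD 0.28).

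Kinesin-2 is a heterotrimer of 2 motor chains and an adaptor, and moves endosomal vesicles in axons. The motor chain Kif3a had 209 in co-culture and 279 alone (-0.42, SD 0.35). Its partner Kif3b had 518 in co-culture and 602 alone (-0.22, SD 0.28). Kif3c, the alternative partner that is enriched in neurons, had 789 in co-culture and 996 alone, and its second probe set had 216 and 273 in the same order, both at -0.34. The adaptor Kifap3, which is outside the 57 genes and was on a list of motor adaptors, had 774 in co-culture and 940 alone on its brightest probe set (-0.28) and 616 and 869 on the other (-0.50). All 6 probe sets of kinesin-2 were thus lower in co-culture. The ratios of Kif3a, Kif3c and Kifap3 exceeded the SD at their brightest probe set, that of Kifap3 only just (-0.2805 against 0.2769).

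Kif26b is an atypical kinesin of developing tissues that was counted here among the 7 transport kinesins, and so enters their median. It had 254 in co-culture and 361 alone (-0.51, SD 0.35). A second probe set had 146 in co-culture and 190 alone (-0.38) and was above the filter through the alone array only. The other 2, below the filter, gave 70.0 in co-culture and 43.9 alone (0.67) and 42.2 and 42.4 (-0.01).

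Kinesin light chains link the Kif5 heavy chains to cargo, and all 3 above the filter were lower on their brightest probe set (median -0.32). Klc4 had 245 in co-culture and 330 alone (-0.43, SD 0.35), and Klc2 had 828 in co-culture and 1036 alone (-0.32, SD 0.21). Klc1, the light chain of neurons, had 2132 in co-culture and 2398 alone (-0.17, SD 0.21). Its other probe sets above the filter went apart, with 684 in co-culture and 1049 alone (-0.62) for one and 344 and 285 (0.27) for another, so that the direction of Klc1 depended on the probe set. The last one was under the floor in both arrays (19.3 in co-culture and 38.0 alone). Klc1 was the 1 gene with both signs among the 10 motor genes that several probe sets above the filter measure.

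**Figure D2:**
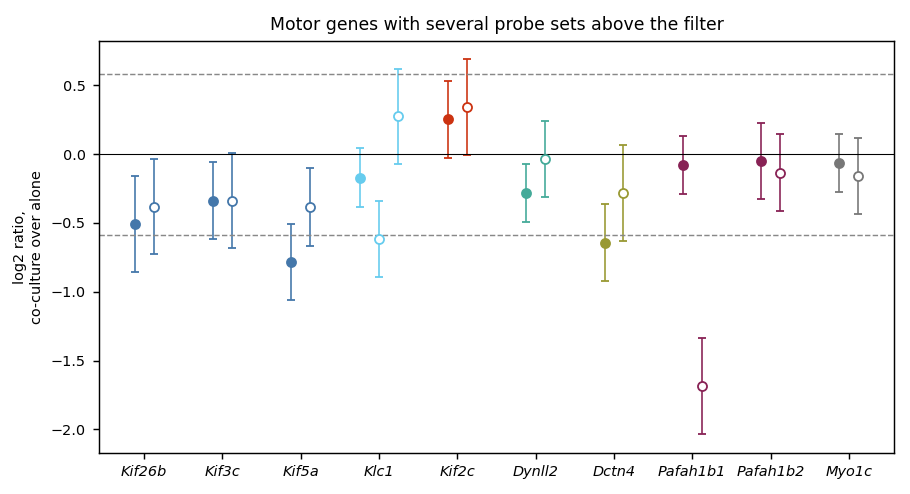
Log2 ratio of co-culture over alone for each probe set above the filter of the 10 motor genes that have several, with bars of the SD of 1 probe set at that intensity and dashed lines at 1.5-fold. Filled circles are the brightest probe set, and Klc1 and Pafah1b1 show probe sets far apart.

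Markers of sympathetic neurons moved with the transport kinesins. All 18 markers above the filter were lower in co-culture, with a median of -0.34, and their summed intensity was 40185 in co-culture and 49933 alone. Th, the rate-limiting enzyme of noradrenaline synthesis, was at -0.43 and Npy, a peptide released with noradrenaline, at -0.30, and the 2 past 1.5-fold were the noradrenaline transporter Slc6a2 (-1.34) and the vesicle fusion gene Snap25 (-0.62). Markers of fibroblasts and smooth muscle, taken as 1 list, had 12 of 17 higher, a median of 0.14 and sums of 58912 in co-culture and 54190 alone. The collagen genes Col1a1 and Col1a2 were at 0.11 and 0.08, and the matrix genes Mgp (1.96), Dcn (1.09) and Lum (0.80) were past 1.5-fold. The smooth muscle genes of the list, picked after their values were seen, were lower for Acta2 (-0.47), Myh11 (-0.29), Myl9 (-0.24) and Tagln (-0.23) and higher for Cnn1 (0.26). The part of the cell mixture in the kinesin values was not tested, and in such samples fewer neurons and less RNA per neuron cannot be told apart.

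Cytoplasmic dynein, the motor for the return journey, differed little. Of 7 heavy, intermediate and light intermediate chains above the filter, 5 were higher and 2 lower, with a median log2 ratio of 0.04 that was -0.05 under scaling to the spiked controls. Among the 5 higher, Dync2h1 passed the filter through the co-culture array only. The heavy chain Dync1h1, which holds the motor domain, had 1358 in co-culture and 1319 alone (0.04, SD 0.21). The light intermediate chains Dync1li1 (1823 in co-culture and 1733 alone, 0.07) and Dync1li2 (1358 and 1320, 0.04), which bind cargo adaptors, were as close. All 3 of these turned to between -0.05 and -0.02 under scaling to the spiked controls. A dim second probe set of Dync1li1 was below the filter (16.6 in co-culture and 46.4 alone).

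The intermediate chains, which hold dynactin, were the exception. Dync1i1, the neuronal form, had 279 in co-culture and 344 alone (-0.30, SD 0.35), and Dync1i2, the form of most cells, had 1578 in co-culture and 1346 alone (0.23, SD 0.21). Dynein-2 moves material within cilia, and its heavy chain Dync2h1 had 190 in co-culture and 178 alone (0.10) while its light intermediate chain Dync2li1 had 231 and 251 (-0.12). Both were within the SD of 0.35.

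The 4 dynein light chains, small dimers at the base of the motor, were all slightly lower (median -0.12). Dynll2 had 1343 in co-culture and 1633 alone (-0.28, SD 0.21), though its second probe set had 672 and 689 (-0.04). Dynlt3 had 365 in co-culture and 417 alone (-0.19). Dynlt1 (2124 in co-culture and 2200 alone, -0.05) and Dynlrb1 (1841 and 1900, -0.05) were near equal and turned to 0.04 under median scaling.

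Dynactin is the cofactor that ties dynein to cargo, and its 5 Dctn genes were also near equal except for 1. Other parts of the complex, such as Capzb (0.30), were on the list of motor adaptors and are not covered here. The p150 subunit Dctn1 had 1232 in co-culture and 1314 alone (-0.09), Dctn2 had 1161 and 1088 (0.09), Dctn5 had 693 and 633 (0.13) and Dctn6 had 1045 and 1073 (-0.04, or 0.05 under median scaling). Dctn4, a subunit of the pointed end, had 325 in co-culture and 507 alone, 1.56-fold lower (-0.64, SD 0.28). The second probe set of Dctn4, made to the same transcript record, had 194 in co-culture and 235 alone (-0.28). The value of Dctn4 was under 1.5-fold after median scaling (-0.56) and quantile normalization (-0.58), and with the average of its probe sets (-0.46).

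Pafah1b1 (Lis1) is the regulator that holds dynein on the microtubule, and the gene is known for its part in neuronal migration. Its brightest probe set had 1416 in co-culture and 1495 alone (-0.08, SD 0.21, or 0.01 under median scaling). Its other probe set had 128 in co-culture and 413 alone, 3.22-fold lower (-1.69, SD 0.35), and passed the filter through the alone array only. The 2 probe sets of Pafah1b1 therefore gave different pictures of the gene. The mean of both was -0.88, and with means over probe sets the median of the 3 Pafah1b genes was -0.27, against -0.08 with the brightest. The catalytic subunits that Lis1 binds were lower by less than the dimmer Pafah1b1 probe set. Pafah1b2 had 692 in co-culture and 717 alone (-0.05, or 0.04 under median scaling), and its second probe set had 646 and 708 (-0.13). Pafah1b3, at 331 and 398 (-0.27, SD 0.28), was lower by more than the brightest Pafah1b1 probe set.

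**Figure D3:**
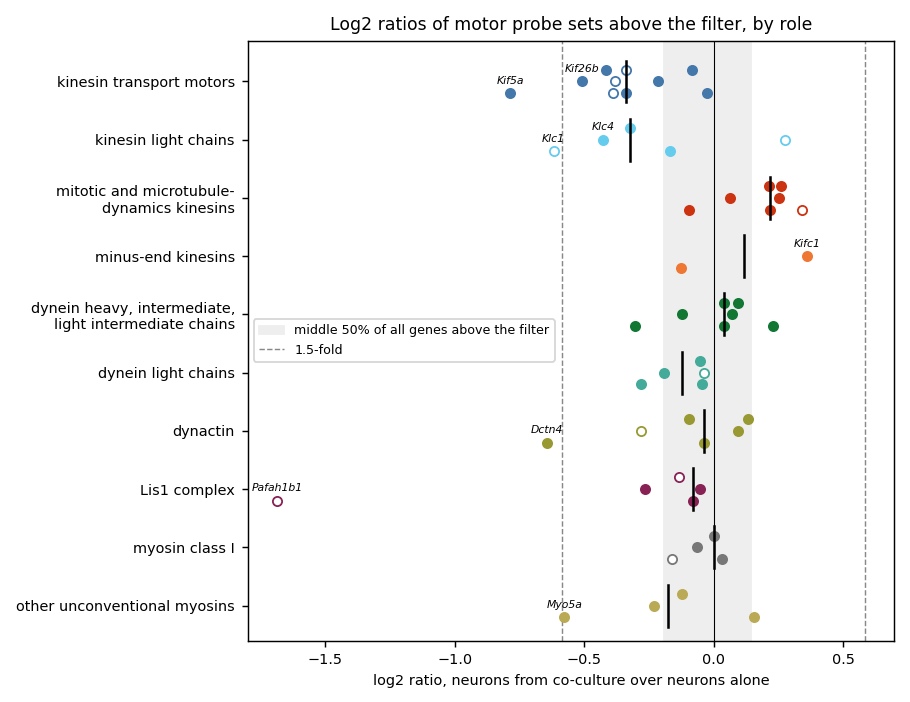
Log2 ratio of co-culture over alone for the 55 motor probe sets above the filter by role class, with filled circles for the brightest probe set of a gene and open circles for others. Black bars are class medians over genes, and the grey band spans -0.19 to 0.14. Transport kinesins and light chains lie mostly left of the band, spindle kinesins mostly right of it.

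Spindle and microtubule-dynamics kinesins had a slightly higher signal in co-culture for 5 of the 6 genes above the filter, with a median of 0.22 that ran from 0.12 to 0.30 over the scalings. None reached 1.5-fold. Kif20a, needed for cytokinesis, had 722 in co-culture and 622 alone (0.22, SD 0.28). Kif22, a chromosome-arm motor, had 700 in co-culture and 602 alone (0.22, SD 0.28), and Kif18b, which shortens astral microtubules, had 414 and 346 (0.26, SD 0.28). Kif2c, a depolymerase at centromeres, had 522 in co-culture and 438 alone (0.25), and its second probe set had 261 and 206 (0.34).

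The minus-end kinesin Kifc1, which gathers spindle poles, had 771 in co-culture and 601 alone (0.36, SD 0.28), the highest ratio of the 44 motor genes on the deposited scale. Kif15, a spindle motor, ran against the rest with 289 in co-culture and 308 alone (-0.10, SD 0.35). Kif2a, a depolymerase also known to limit axon branches in neurons, had 602 in co-culture and 575 alone (0.07, or -0.03 under scaling to the spiked controls). Kifc3, a minus-end kinesin of cell junctions, had 339 in co-culture and 371 alone (-0.13).

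Each of the spindle kinesin ratios but that of Kifc1 was within 1 SD of 1 probe set. Of 17 other mitosis markers above the filter, 11 were higher and 6 lower, with a median of 0.04 (-0.05 under scaling to the spiked controls) and sums of 15303 in co-culture and 14804 alone. The replication clamp Pcna and the mitotic kinase Cdk1 were at 0.07 and 0.06. Of those picked after their values were seen, the mitotic cyclin Ccnb2 was at 0.30 and the spindle kinase Aurkb at 0.26, whereas the kinase Plk1 was at -0.35 and the proliferation marker Mki67 at -0.06. The cells that carried the spindle kinesin transcripts were not tested.

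Promoter sequences are printed for 3 of the dividing-cell kinesins with a higher signal and, for contrast, for the transport kinesin Kif3a, which was lower. They were picked after their values were seen, and Kif15 and Kifc3 did not share the higher direction. They come from RefSeq on GRCr8 and run from 250 bases before to 50 bases after the annotated start of the gene, 5′ to 3′ on the gene's strand. Capitals mark CCAAT or its reverse complement ATTGG, the core of the cell cycle homology element TTTGAA or TTCAAA, and the GC box GGGCGG or CCGCCC.
Kif22, chr1:191080829-191081128, minus strand: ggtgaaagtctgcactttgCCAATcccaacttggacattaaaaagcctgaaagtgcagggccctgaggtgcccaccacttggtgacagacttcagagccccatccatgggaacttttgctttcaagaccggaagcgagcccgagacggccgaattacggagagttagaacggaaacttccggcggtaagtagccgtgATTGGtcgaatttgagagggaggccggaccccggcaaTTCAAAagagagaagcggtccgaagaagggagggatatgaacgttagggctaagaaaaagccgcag
Kifc1, chr20:5000679-5000978, plus strand: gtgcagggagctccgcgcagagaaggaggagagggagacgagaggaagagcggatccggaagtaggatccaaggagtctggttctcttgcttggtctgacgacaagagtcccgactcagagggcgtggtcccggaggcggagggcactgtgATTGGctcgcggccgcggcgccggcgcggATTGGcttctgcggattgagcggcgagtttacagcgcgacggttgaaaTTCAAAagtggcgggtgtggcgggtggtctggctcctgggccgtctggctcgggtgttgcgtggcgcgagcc
Kif20a, chr18:26504172-26504471, plus strand: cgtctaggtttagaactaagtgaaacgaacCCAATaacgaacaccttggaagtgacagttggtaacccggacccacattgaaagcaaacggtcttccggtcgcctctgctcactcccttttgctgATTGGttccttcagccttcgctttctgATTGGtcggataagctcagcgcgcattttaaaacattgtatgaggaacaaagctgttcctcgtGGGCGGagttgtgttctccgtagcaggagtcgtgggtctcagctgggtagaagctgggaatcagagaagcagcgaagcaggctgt
Kif3a, chr10:38226520-38226819, plus strand: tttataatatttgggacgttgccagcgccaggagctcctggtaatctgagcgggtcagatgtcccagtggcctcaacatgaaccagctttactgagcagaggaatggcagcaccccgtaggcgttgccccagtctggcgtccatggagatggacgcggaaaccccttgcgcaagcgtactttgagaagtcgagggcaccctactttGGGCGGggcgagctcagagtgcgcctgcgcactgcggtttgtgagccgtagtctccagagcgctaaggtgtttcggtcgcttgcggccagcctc

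Kif22 and Kifc1 each held TTCAAA just upstream of the start, at -16 and -22, with ATTGG further upstream (at -53 in Kif22, and at -99 and -70 in Kifc1). Kif20a held ATTGG at -125 and -98, CCAAT at -220 and GGGCGG at -35. Kif3a held GGGCGG at -44 and neither of the other motifs. Of the 7 spindle or minus-end kinesins above the filter with a promoter in the table, 3 held TTTGAA on either strand (Kif15, Kif22 and Kifc1), against 18.3% of all 33469 promoters of the same length. CCAAT was held by 3 of the 7, against 37.5%, and GGGCGG by 3 of the 7, against 33.1%. Kif18b (0.26) and Kif2c (0.25), also higher in co-culture and not printed, held none of these motifs. Of 9 transport kinesins and light chains with a promoter, TTTGAA was held by 1 (Kif26b), CCAAT by 4 and GGGCGG by 8. The motifs do not overlap one another in letters, both strands were searched, and a match is a run of letters and not a shown binding site.

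Among the myosins, the class I motors, which link membrane to actin, were near equal. Myo1c had 1785 in co-culture and 1865 alone (-0.06, or 0.02 under median scaling), Myo1d had 213 and 208 (0.03, or -0.06 under scaling to the spiked controls) and Myo1e had 326 in both. The second probe set of Myo1c had 730 in co-culture and 815 alone (-0.16).

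Myo5a, the motor that carries vesicles and endoplasmic reticulum on actin in neurons, had 207 in co-culture and 310 alone (-0.58, SD 0.35), 1.49-fold lower and just short of 1.5-fold. Of the others, Myo18a had 349 in co-culture and 409 alone (-0.23), Myo6, the myosin that walks towards the minus end of actin, had 177 and 193 (-0.12), and Myo9b had 435 and 391 (0.15). All of these 3 were within the SD of 1 probe set. Second probe sets below the filter ran the other way for Myo6 (53.6 in co-culture and 27.1 alone, 0.44) and the same way for Myo9b (52.7 and 32.0, 0.41), both ratios taken against the floor because the values alone were under it, while that of Myo1d was under the floor in both arrays (11.5 and 13.7).

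Related motor genes were also set side by side by their log2 ratios. The 8 pairs were chosen after their values were seen, so they describe these genes alone, and 1 of them, Fez1 and Fez2, differed by more than 2 combined SDs. By their brightest probe sets Kif5a was 0.70 below Kif5b (SD 0.39), and Dync1i1 was 0.53 below Dync1i2 (SD 0.41). The second probe set of Kif5a, at -0.39, lay nearer to Kif5b at -0.08, so the size of that gap depended on the probe set. Fez1, a neuronal adaptor of kinesin, was 1.06 below its general relative Fez2 (SD 0.40), with 333 in co-culture and 553 alone for Fez1 and 889 and 708 for Fez2. Kif3a and Kif3b, Klc4 and Klc2, Dync1li1 and Dync1li2, Dynlt3 and Dynlt1, and Pafah1b3 and Pafah1b2 differed by less than their combined SD.

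Adaptors and regulators that load the motors gave no common direction. Of 35 on the array 30 were above the filter, 17 lower and 13 higher, with a median of -0.03. The 2 past 1.5-fold were Fez1 (-0.73) and Hap1, the huntingtin-associated adaptor of axonal transport, with 499 in co-culture and 771 alone (-0.63), both lower. Capzb, the barbed-end cap that is also part of dynactin, had 3312 in co-culture and 2687 alone (0.30), and the end-binding protein Mapre1 had 2664 and 2713 (-0.03).

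**Figure D4:**
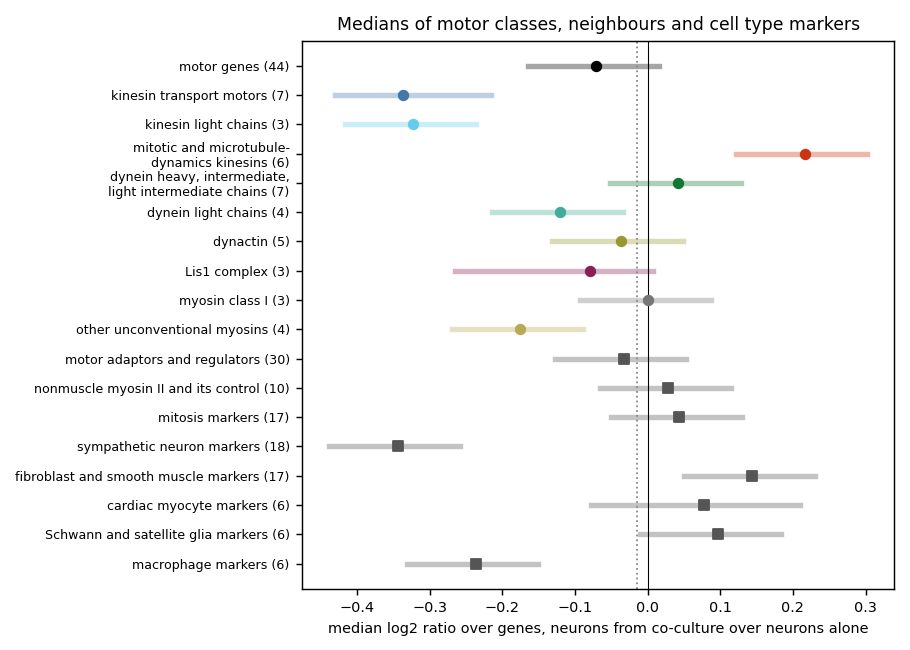
Medians of the log2 ratio, co-culture over alone, for motor classes (circles) and for neighbouring or marker gene lists (squares), with the number of genes above the filter in brackets. Bars give the lowest to highest median over the 12 alternative settings, and the dotted line is the median of all genes. Transport kinesins, light chains and sympathetic neuron markers stay below 0 throughout, and the spindle kinesins above it.

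The other 13 motor genes had no probe set above the filter and give no usable ratio. They were Kif1b, Kif1c, Kif6, Kif12, Klc3, Dync2i1, Myo5b, Myo5c, Myo9a, Myo10, Myo15b, Myo16 and Myo18b. Their intensities ran from 4.41 to 115 in co-culture and from 5.61 to 137 alone. Of all 77 probe sets 22 were below the filter and 7 were under the floor in both arrays. A further 5 probe sets that the annotation assigns to several genes, among them a motor gene, were left out.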

How the data were processed

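Each array's deposited column holds linear intensities, 1 for each probe set. Per the series' design text the authors quantified the arrays with dChip 1.3, and the submitters' processing notes name MAS5. The sources used here do not give which of them made these values, nor the scaling target or the background step. The number of arrays limits the precision, and no depth applies.

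The intensities were used without further normalization, with floor, filter and spread as given above, in Python 3.11.15 with numpy 2.4.6, pandas 2.3.3, scipy 1.17.1 and statsmodels 0.14.6. Of 15866 probe sets, 12783 had 1 symbol, 312 several and 2771 none, and symbols were updated through gene identifiers to the GRCr8 RefSeq table, which held all 57 motor genes. Brightest means the highest mean intensity over both arrays. With 1 array per group no test was computed, and 1.5-fold is a description. The calculation was tested on simulated data. Full values were given for members past 1.5-fold, for the 3 brightest of each role class and for each probe set of members with several above the filter, and other members above the filter and their dimmer probe sets were added. List genes named were the 2 brightest above the filter and up to 3 past 1.5-fold, with Nppa added as the study's own marker. Others are said to be picked afterwards or to have passed the filter through 1 array only. A list gene that the rule names is not reported here. Members, role classes and lists were chosen with earlier results of these data known. Dync2i1 was put in its class after the files were read. The motifs, the nonmuscle myosin genes, the paralog pairs and the printed promoters were chosen after the values were seen. Of the role classes and lists, those of cardiac, glial, macrophage and endothelial markers are given in the closing observations.

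Alternatives tried for the scale were quantiles, the median, lowess (span 0.3), the mean trimmed by 2% at each end and the spiked bacterial and phage controls. Others were the floor raised to the 40th percentile, left out or used as a pseudocount, a filter at the 25th percentile, none or in both arrays, and the average of all probe sets of a gene.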

Additional observations from a re-analysis of the deposited data

How the results depend on the processing

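Over the 12 alternatives, the medians of the transport kinesins and the light chains stayed below 0 and that of the spindle kinesins above 0. The count of motor genes at least 1.5-fold lower was 2 as reported, 1 under quantile normalization (Kif5a) and 1 under median scaling (Kif5a), and 4 under scaling to the spiked controls, where Myo5a and Kif26b joined. Under scaling to the spiked controls 9 motor genes were higher and the motor median was -0.17, where 67.4% of all genes were lower. With both arrays scaled to one median, the motor median turned to 0.015, while that of all genes was 0.07. The median of the transport kinesins was -0.22 with no filter, where dim genes at the floor enter, and the median of the Pafah1b genes was -0.27 where probe sets of a gene were averaged, so that the dimmer probe set of Pafah1b1 counts. With that average the 2 motor genes at least 1.5-fold lower were Kif5a (-0.59) and Pafah1b1 (-0.88), and Dctn4 was at -0.46. Of the other values for the motor totals and classes, 160 moved by less than the spread of 1 probe set divided by the square root of the number of genes or, for counts, by no more than 1.5 times. The median log2 ratio of all genes was -0.01 as reported, 0.07 after median scaling and -0.11 on the scale of the spiked controls. The 1.5-fold counts over all genes were 210 lower and 123 higher as reported, 351 lower and 81 higher under scaling to the spiked controls, 190 higher under median scaling, 580 lower and 259 higher with the filter at the 25th percentile or none, and 124 lower and 77 higher with the filter in both arrays. No paired analysis was possible because each condition has 1 array. Signals near the floor limit the ratios of the dimmest motor genes.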

Other observations

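Nonmuscle myosin II, the actin motor that drives contraction and growth cone retraction, was near equal in the 2 arrays. Of the 10 genes of this motor and its control above the filter, 5 were higher and 5 lower, with a median log2 ratio of 0.03 that was -0.07 under scaling to the spiked controls. Myl12a, a regulatory light chain, had an intensity of 4146 in neurons from co-culture and 3827 in neurons alone (0.12). Among genes picked after their values were seen, the heavy chain Myh9 had an intensity of 3025 in neurons from co-culture and 2692 in neurons alone (0.17), and the heavy chain Myh10 had 899 and 809 (0.15), whereas the light chain Myl12b had 1257 and 1489 (-0.24). Ppp1r12a, the targeting subunit of myosin phosphatase, had 198 in co-culture and 254 alone (-0.36).

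Among markers of other cells, 6 of 15 cardiac genes were above the filter, 3 higher and 3 lower, with a median of 0.08 (-0.02 under scaling to the spiked controls) and sums of 4407 in co-culture and 4231 alone. The calcium pump Atp2a2 (2188 in co-culture and 2397 alone, -0.13) was the largest part of both sums, and the troponin Tnnt2 was at 0.48. Nppa, the myocyte marker the study used, had 201 in co-culture and 178 alone (0.18), and Nppb, the related peptide past 1.5-fold, had 309 and 180 (0.78). Nppa and Nppb, counted among the 3 higher, passed the filter through the co-culture array only. Ryr2 and Tnni3 were under the floor in both arrays. The other cardiac genes below the filter were added after their values were seen. Higher in co-culture were Myl2 (134 in co-culture and 44.8 alone), Myh6 (134 and 74.3), Myh7 (69.9 and 18.3) and Myl3 (169 and 143). Lower were Tnnc1 (160 and 178), Ttn (68.5 and 106) and Myl7 (31.0 and 40.5). Myh7 alone and Myl7 in co-culture were under the floor. Of 7 Schwann and satellite glia markers 6 were above the filter, with a median of 0.10 and sums of 5029 in co-culture and 4933 alone, and the calcium-binding protein S100b was past 1.5-fold (0.99), with the myelin gene Pmp22 at -0.11 and the lineage factor Sox10 at 0.09. The glial markers Erbb3 and Gfap, both higher, passed the filter through the co-culture array only. Macrophage markers had 5 of 6 lower, a median of -0.24 and sums of 1544 in co-culture and 1852 alone, with Lyz2 at -0.22 and Cd68 at -0.26. Among these 6, Csf1r and Aif1, both lower, passed the filter through the alone array only. C1qc, the 1 higher, passed through the co-culture array only. Of 6 endothelial markers, 1 was above the filter (Eng, 0.21), and Kdr and Pecam1 were under the floor in both arrays.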
